A study of Homo sapiens with 32 samples.

Results

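The genes described here encode the subunits of the Mediator complex and of RNA polymerase II (Pol II). They were chosen by name: array clusters with a single platform gene symbol that begins with MED and a number, that runs from POLR2A to POLR2M, or that is CDK8, CDK19 or CCNC. The rule found 38 genes among 21788 transcript clusters, 28 of Mediator and 10 of Pol II, each with 1 cluster. MED6, MED22 and MED25 had no cluster with a single symbol, and MED10, MED27, POLR2I, POLR2J and POLR2M lay in clusters that several symbols share; these 8 genes were not analysed here. RNA came from lymphoblastoid cell lines, which are B cells immortalised with Epstein-Barr virus and grown in culture. Every culture had received 200 µM 4-thiouridine (4sU) for 2 h, a nucleoside that is built into RNA made during the labelling, so no unlabelled culture serves as a control. From each culture the 4sU-labelled RNA (called nascent) and the total RNA were hybridised to separate exon arrays. GM12813, GM10835 and GM07029 had 3 independent cultures each, and GM12813 had technical duplicate arrays of all 3. GM07019, GM12812, GM12814 and GM12815 had 1 culture each, so these stand for single cultures.

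Pol II transcribes all protein-coding genes. POLR2A and POLR2B form its catalytic centre, several smaller subunits complete it, and some of these are built into Pol I and Pol III as well. Mediator links transcription factors bound at enhancers to Pol II at promoters: its head and middle modules contact the polymerase, its tail receives activators, MED14 holds these modules together, and a separable kinase module, built on CDK8 or CDK19 with cyclin C, binds the core reversibly. In RNA labelled for a set time, the nascent-to-total ratio is high for transcripts that turn over fast and low for long-lived ones, which is why the study calculated mRNA half-life from it.

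The 32 arrays were 16 of nascent and 16 of total RNA, from 13 cultures of 7 lines. Array medians ran from 7.58 to 7.92 log2 units in nascent RNA and from 6.74 to 6.95 in total RNA. The nascent value of the median cluster exceeded the total value by 0.77 as deposited, and since the scaling between the fractions is unknown, each culture was set to 0 at its median cluster. Higher and lower ratios below are relative to that cluster. Before this centring, 31 of the 37 members tested had a ratio above 0. Of the markers, all 6 B cell genes with a cluster (CD74, MS4A1, CD79A, CD79B, PAX5 and CD22) passed the background level, a mean of 6.40 over the arrays of both fractions. So did 1 of 7 T and NK cell genes (NKG7), 0 of 5 monocyte and granulocyte genes, and 4 of 6 genes of fibroblasts and epithelia (KRT8, KRT18, COL1A1 and COL1A2). In total RNA, CD3D averaged 3.96, LYZ averaged 3.50 and EPCAM averaged 3.00, the lowest of their lists. Of the genes outside the B cell list that passed, KRT8 averaged 10.35 in total RNA, above the B cell gene CD79B (9.24). NKG7 averaged 7.68, KRT18 averaged 7.11, COL1A1 averaged 6.61 and COL1A2 averaged 6.10. No 2 arrays held identical values.

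Over the 7 lines, 13 members had a higher nascent/total ratio than the median cluster and 13 had a lower one, by limma with adjusted p under 0.05. That is 35.1% of 37 in each direction, against 31.7% higher and 31.7% lower among all 14167 clusters tested. The share called in either direction was 70.3%, against 63.5% of all clusters. The ratio was above 0 in all 7 lines for 11 members and below 0 in all 7 for 11. That is 29.7% each way, against 24.9% above and 25.2% below among all clusters. The median ratio was -0.04 for the members and -0.01 for all clusters, and the median size of the ratio regardless of sign was 0.46 for the members and 0.37 for all clusters. The subunits therefore lay on both sides of the median cluster at about the rate of other clusters. The counts by role below are to be read beside the same 31.7% each way. MED12L, a paralog of MED12 in the kinase module, was the only member not tested: it averaged 5.35 in nascent and 4.70 in total RNA, under the background level. The arrays measured whole cultures, so fewer expressing cells and less RNA per cell cannot be told apart.

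**Figure D1:**
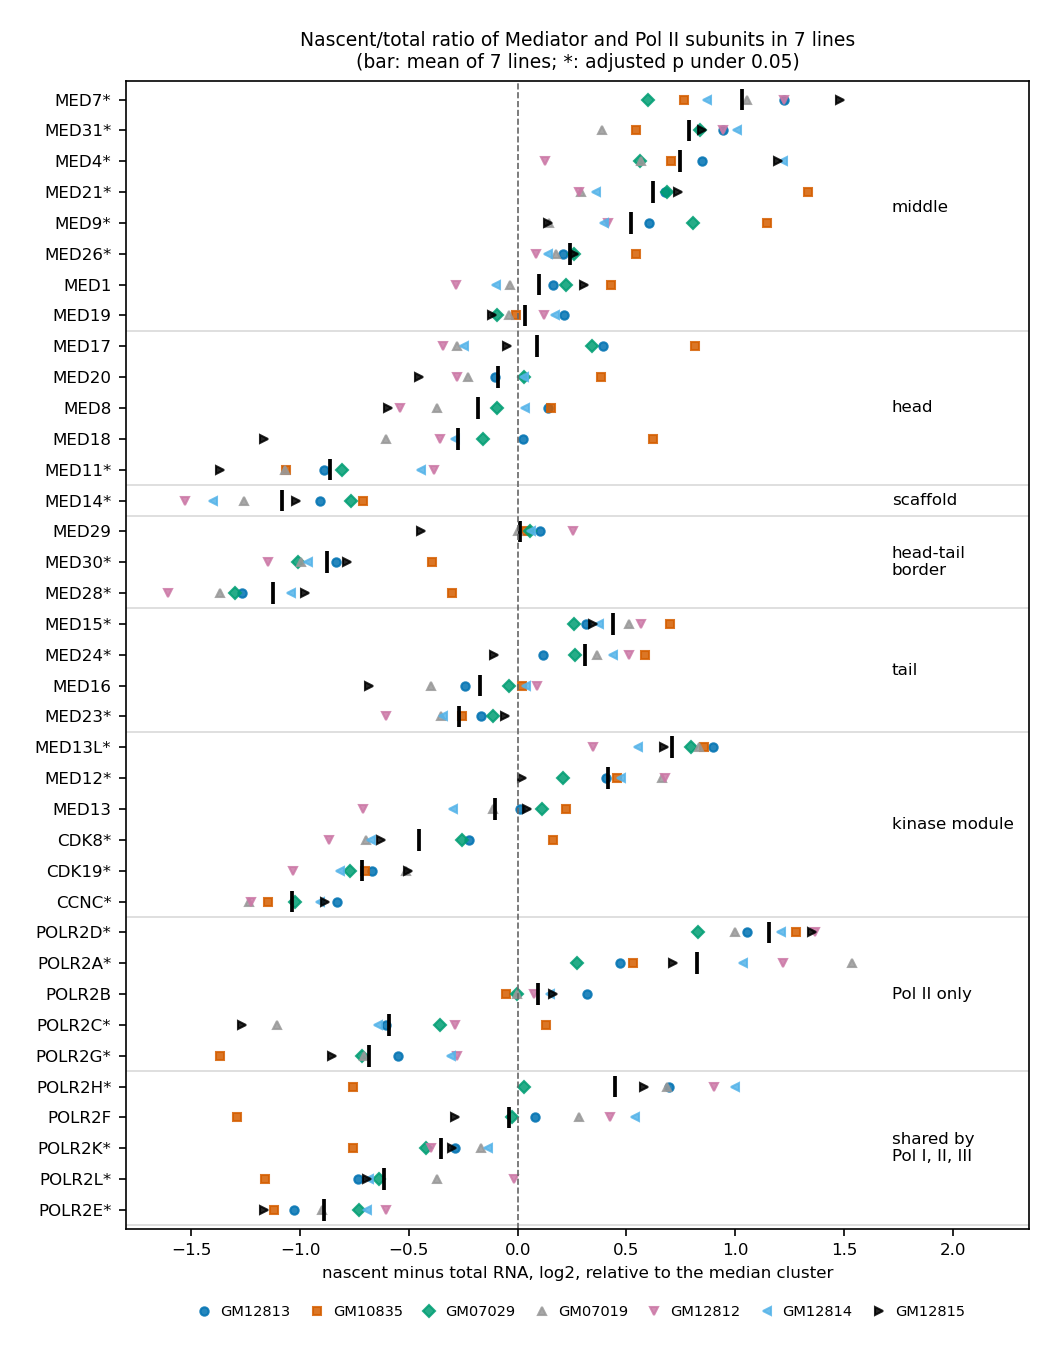
Nascent minus total RNA of each tested member (log2, relative to the median cluster) on the horizontal axis, with members grouped by role down the page; each symbol is 1 of 7 lines, the black bar is their mean, and an asterisk marks an adjusted p under 0.05. The middle-module members lie mostly to the right of 0, MED14, MED28, MED30 and CCNC lie to the left in every line, and the GM10835 squares stand at the left end for POLR2H, POLR2F, POLR2G, POLR2K and POLR2L.

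The 5 tested subunits found only in Pol II split in opposite directions: 2 were higher, 2 were lower and 1 was not called, with a median of 0.09. POLR2D, which with POLR2G forms the detachable stalk of the enzyme, had ratios from 0.83 in GM07029 to 1.37 in GM12812, with a median line at 1.21. It was above 0 in all 7 lines, and its mean of 1.16 ± 0.20 (SD, n = 7 lines) was the highest of the members (adjusted p = 1.43e-06). Its stalk partner POLR2G ran from -1.37 in GM10835 to -0.28 in GM12812, with a median line at -0.70, below 0 in all 7 lines, and averaged -0.68 ± 0.37 (adjusted p = 0.000400). The 2 stalk genes thus had ratios of opposite sign in every line.

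POLR2A, the largest subunit, whose C-terminal repeats carry the phosphorylation marks of the transcription cycle, ranged from 0.27 in GM07029 to 1.54 in GM07019 with a median line at 0.72. It was above 0 in all 7 lines and averaged 0.83 ± 0.45 (adjusted p = 0.000364), the widest spread among the higher members apart from POLR2H. The 4 lines with 1 culture lay at 0.72 to 1.54, and the 3 with replicate cultures at 0.27 to 0.53. Total RNA of POLR2A was 8.09 to 8.50 in the former and 8.96 to 9.16 in the latter. MED17 and CDK8 parted by the same sets of lines, with the opposite sign. Whether the 2 sets of cultures differ was not tested. POLR2B, the second-largest subunit, lay between -0.05 and 0.32 and averaged 0.09 ± 0.13 (adjusted p = 0.293). POLR2C, part of the platform on which the enzyme assembles, averaged -0.59 ± 0.48 (adjusted p = 0.00410), with 6 lines below 0, down to -1.27 in GM12815, and GM10835 above it at 0.13. RefSeq names 2 pseudogenes after POLR2D and 1 after POLR2C, so signal from near-identical copies cannot be told apart from these genes on the array.

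Of the 5 subunits shared by Pol I, Pol II and Pol III, 3 were lower, 1 was higher and 1 was not called, with a median of -0.35. POLR2E ranged from -1.17 in GM12815 to -0.61 in GM12812 with a median line at -0.90, so it was below 0 in all 7 lines. Its mean was -0.89 ± 0.22 (adjusted p = 5.53e-06). POLR2L averaged -0.61 ± 0.35 (adjusted p = 0.000645), and POLR2K averaged -0.35 ± 0.21 (adjusted p = 0.00325). Both were also below 0 in every line, although POLR2L came to -0.02 in GM12812. POLR2K lost its call when the trend of the ratio with signal was removed (-0.17, adjusted p = 0.121), and RefSeq names 2 pseudogenes after POLR2K and 1 after POLR2L.

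POLR2H averaged 0.45 ± 0.62 with an adjusted p of 0.0490, and POLR2F averaged -0.04 ± 0.62 (adjusted p = 0.863). These were the 2 widest spreads between lines among the members. In 6 lines POLR2H ran from 0.03 to 1.00, whereas GM10835 stood at -0.76. The call for POLR2H ended without any 1 of 5 lines: the adjusted p was 0.111 without GM07019, 0.116 without GM12812, 0.113 without GM12813, 0.128 without GM12814 and 0.0937 without GM12815. For POLR2F, GM10835 was at -1.29, and the other 6 lines lay between -0.29 and 0.54.

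The middle module of Mediator, which together with the head contacts the polymerase, had 6 of its 8 tested members higher and 0 lower, with a median of 0.57. Of all clusters, 31.7% were higher and 31.7% lower. MED7, which joins MED21 in the hinge of the module, ran from 0.60 in GM07029 to 1.48 in GM12815 with a median line at 1.06. Its mean was 1.03 ± 0.31 (adjusted p = 1.01e-05). MED31 averaged 0.79 ± 0.23 (adjusted p = 2.32e-05), with lines from 0.39 to 1.01. All 7 lines were above 0 for both genes.

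MED4, a core middle subunit, averaged 0.75 ± 0.38 (adjusted p = 0.000311), from 0.13 in GM12812 to 1.22 in GM12814. Its highest ratios, in GM12814 and GM12815 (1.20), came with low total RNA, of 6.30 and 6.02. Both values lie under 6.40, but that level was set over both fractions, and total arrays ran lower than nascent ones. Whether these values lie at the background of total RNA was not tested. MED21 averaged 0.62 ± 0.37 (adjusted p = 0.000891) and MED9 averaged 0.52 ± 0.36 (adjusted p = 0.00264), both with GM10835 as the highest line, at 1.34 and 1.14. MED26, which can recruit elongation factors to the complex, averaged 0.24 ± 0.15 (adjusted p = 0.0174). Each of these 4 genes was above 0 in all 7 lines. MED1, the subunit that nuclear receptors bind, averaged 0.10 ± 0.25 (adjusted p = 0.374) and MED19 averaged 0.03 ± 0.13 (adjusted p = 0.702), and lines of both lay on either side of 0.

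The head module, the main contact of Mediator with Pol II, had 1 of 5 tested members lower, 0 higher and a median of -0.18. MED11 ran from -1.37 in GM12815 to -0.39 in GM12812, below 0 in all 7 lines, and averaged -0.86 ± 0.35 (adjusted p = 5.46e-05). MED17, the head scaffold, averaged 0.09 ± 0.43, MED20 averaged -0.09 ± 0.27, MED8 averaged -0.18 ± 0.32 and MED18 averaged -0.28 ± 0.55. None of these 4 passed the test, with adjusted p between 0.161 and 0.581, and GM10835 was the highest line for all of them. MED18 spread the most, from -1.17 in GM12815 to 0.62 in GM10835, and it passed the test without GM10835 (-0.42, adjusted p = 0.0159).

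MED14, the backbone that joins head, middle and tail, had its lowest ratio in GM12812, at -1.53, its median at -1.02 and its highest in GM10835, at -0.71. It averaged -1.09 ± 0.32 (adjusted p = 6.27e-06) and lay below 0 in every line. Of the 3 subunits at the border of head and tail, MED28 averaged -1.12 ± 0.42 (adjusted p = 1.98e-05), the lowest mean of the members, and MED30 averaged -0.88 ± 0.24 (adjusted p = 8.96e-06). GM10835 was the highest line for both, at -0.30 for MED28 and -0.39 for MED30, and the other 6 lines ran from -1.61 to -0.98 for MED28 and from -1.15 to -0.79 for MED30. MED29 averaged 0.01 ± 0.22 (adjusted p = 0.931). RefSeq names 8 pseudogenes after MED28, so its values may include signal of copies.

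In the tail, which activators contact, 2 members were higher, 1 was lower and 1 was not called, with a median of 0.07. MED15, a subunit that many activators bind, lay between 0.26 and 0.70 in all lines and averaged 0.44 ± 0.16 (adjusted p = 0.000516), although RefSeq names 7 pseudogenes after it. MED24 averaged 0.31 ± 0.24 (adjusted p = 0.0125), with GM12815 alone below 0 at -0.11. MED23 averaged -0.27 ± 0.19 (adjusted p = 0.0116), below 0 in all 7 lines, but lost its call when the trend with signal was removed (-0.16, adjusted p = 0.0587). MED16 averaged -0.17 ± 0.28 (adjusted p = 0.150).

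The kinase module had 3 members lower, 2 higher and 1 not called, with a median of -0.28. CCNC, the cyclin that activates the module's kinase, ran from -1.23 in GM07019 to -0.83 in GM12813 with a median line at -1.02. Its mean was -1.04 ± 0.17 (adjusted p = 1.18e-06), among the narrowest spreads of the members. The kinases were lower too: CDK19 averaged -0.71 ± 0.18 (adjusted p = 1.44e-05) and was below 0 in all 7 lines, and CDK8 averaged -0.46 ± 0.36 (adjusted p = 0.00518) and was below 0 in 6, with GM10835 at 0.16. RefSeq names 2 pseudogenes after CDK8.

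MED13L, a paralog of MED13, the link between kinase module and core, averaged 0.71 ± 0.20 (adjusted p = 3.04e-05), from 0.34 in GM12812 to 0.90 in GM12813. MED12, which activates the cyclin-bound kinase, averaged 0.42 ± 0.24 (adjusted p = 0.00214). Both were above 0 in all 7 lines. MED13 averaged -0.10 ± 0.31 (adjusted p = 0.411). Within a line, MED13 minus MED13L was -0.81 ± 0.17 (SD, n = 7 lines), with lines from -1.05 to -0.63, so MED13 was the lower of this pair everywhere. CDK8 minus CDK19 was 0.26 ± 0.37, from -0.18 to 0.86, and was above 0 in 5 of 7 lines. These differences between paralogs were not tested.

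**Figure D2:**
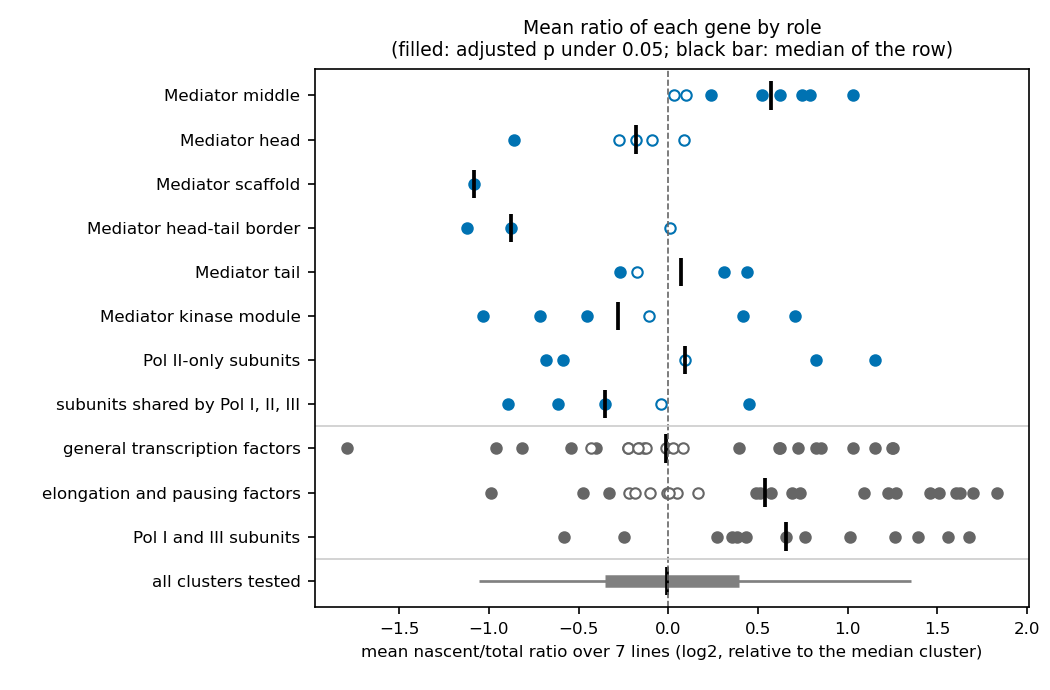
Mean nascent/total ratio over 7 lines (log2, relative to the median cluster) of each tested gene, by role; blue points are Mediator and Pol II subunits, grey points are other transcription genes, filled points had an adjusted p under 0.05, and a black bar is the median of the row. The bottom row gives all clusters tested, as a thick bar from the 25th to the 75th percentile (-0.35 to 0.39) and a thin line from the 5th to the 95th (-1.05 to 1.35).

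Genes that work beside the complexes also lay on both sides of the median cluster, where 31.7% of all clusters were higher and 31.7% lower. Of 25 general transcription factor genes tested, 10 were higher and 6 lower, with a median of -0.01. The highest were TAF8 (1.25 ± 0.15) and TBP, the TATA-binding protein (1.25 ± 0.26), and the lowest were GTF2H3, a TFIIH subunit (-1.79 ± 0.42), and TAF10 (-0.96 ± 0.26). Of 24 elongation and pausing factor genes, 14 were higher and 3 lower, with a median of 0.54. At the ends stood LARP7 (1.83 ± 0.39), SUPT5H (1.70 ± 0.40), SKIC8 (-0.99 ± 0.37) and SUPT4H1 (-0.48 ± 0.36). Total RNA of LARP7 was low, at an average of 5.50, under the 6.40 set over both fractions. SUPT5H and SUPT4H1, one above and one below the median cluster, are the partner subunits of the pausing factor DSIF.

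The 13 tested subunits found in Pol I or Pol III but not in Pol II had 11 higher and 2 lower ratios, with a median of 0.65. Among all clusters 31.7% were higher and 31.7% lower. POLR1B and POLR3A, the second-largest subunit of Pol I and the largest of Pol III, averaged 1.67 ± 0.17 and 1.56 ± 0.10. POLR1D averaged -0.58 ± 0.29 and POLR3G averaged -0.25 ± 0.18. The 5 shared subunits had a median of -0.35 on the same scale. Whether these lists differ from each other was not tested.

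Between the 3 lines with replicate cultures, the ratio of 14 of the 37 members differed by limma's moderated F test, 37.8%, against 25.4% of all clusters. This count depended on single cultures, and the share of all clusters moved with it. Without GM10835 replicate 1, 2 and 3 it was 8, 7 and 5 members, against 16.6%, 15.8% and 12.8% of all clusters. Without GM12813 replicate 2 or 3 it was 7 members, against 13.8% and 14.7% of all clusters. The members' share came down to 13.5% without GM10835 replicate 3, and to 10.5% (4 of 38 members) with no filter on low values, where 9.23% of all clusters were called, so it was then near that of all clusters. The members' median SD between cultures of a line was 0.16, and that of all clusters was 0.17. Of the 14, GM10835 had the highest ratio for 9, namely MED28, MED18, POLR2C, MED21, MED30, MED20, MED17, MED24 and MED15, and the lowest for 4, namely POLR2H, POLR2F, POLR2G and POLR2K. The remaining gene, MED7, was highest in GM12813, at 1.22 ± 0.21, against 0.76 ± 0.16 in GM10835 and 0.60 ± 0.16 in GM07029 (SD, n = 3 cultures). So 8 of the 9 that were highest in GM10835 were Mediator subunits, and all 4 that were lowest there were Pol II subunits. Mediator made up 27 of the 37 members tested and Pol II 10, so 8 of 9 is not far from that make-up. Of these genes, only MED28, POLR2C, POLR2H and POLR2F kept their call in all 21 alternative settings. In GM12813 minus GM10835, 6 members had a higher ratio and 8 a lower one, against 12.7% and 10.4% of all clusters, and in GM10835 minus GM07029, 7 were higher and 4 lower, against 7.64% and 6.23%. These counts also depended on single cultures, and the shares of all clusters moved with them. The first pair gave 3 higher and 3 lower without GM10835 replicate 1 (8.39% and 5.97% of all clusters) or 3 (8.22% and 5.03%). It gave 5 and 3 without GM10835 replicate 2 (10.1% and 6.81%), and 6 and 3 without GM12813 replicate 1 (10.4% and 5.24%). It gave 3 and 4 without GM12813 replicate 2 (7.98% and 5.36%) or 3 (7.73% and 5.82%). The second pair gave 3 and 3 without GM10835 replicate 1 (4.99% and 4.05%), and 2 and 2 without replicate 2 (2.36% and 2.93%). It gave 1 and 2 without GM10835 replicate 3 (2.53% and 3.16%), and 4 and 3 without GM07029 replicate 3 (4.6% and 7.09%). It gave 5 and 2 without GM12813 replicate 2 (4.62% and 4.49%).

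POLR2H had ratios of 0.58, 0.71 and 0.80 in the GM12813 cultures, -0.76, -0.65 and -0.86 in those of GM10835, and -0.04, 0.34 and -0.22 in those of GM07029. The 3 lines did not overlap for this gene. GM12813 exceeded GM10835 by 1.45 (adjusted p = 0.000141), GM12813 exceeded GM07029 by 0.67 (adjusted p = 0.0264), and GM10835 was below GM07029, by -0.79 (adjusted p = 0.00810). The call between GM12813 and GM07029 ended without GM07029 replicate 3 (adjusted p = 0.0694), GM12813 replicate 2 (0.0910) or GM12813 replicate 3 (0.117). Its nascent RNA was 10.62 ± 0.04 in GM12813, 11.16 ± 0.02 in GM10835 and 10.23 ± 0.01 in GM07029 (F test, adjusted p = 5.14e-07). Its total RNA was 9.12 ± 0.14 in GM12813, 11.09 ± 0.10 in GM10835 and 9.44 ± 0.30 in GM07029 (F test, adjusted p = 4.82e-06). GM10835 was thus the highest line in both fractions, with a range of line means of 0.93 in nascent and 1.97 in total RNA.

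POLR2F had ratios of -0.17, 0.32 and 0.09 in GM12813, -1.22, -1.42 and -1.23 in GM10835, and 0.27, -0.07 and -0.29 in GM07029. GM10835 lay apart below the other 2 lines, which overlapped. GM12813 minus GM10835 was 1.37 (adjusted p = 0.000355) and GM10835 minus GM07029 was -1.26 (adjusted p = 0.00169). Its total RNA spanned 2.07 between the lines and its nascent RNA spanned 0.87, both highest in GM10835. POLR2G, the stalk subunit, was also lowest in GM10835, at -0.55 ± 0.18 in GM12813, -1.37 ± 0.04 in GM10835 and -0.72 ± 0.39 in GM07029 (F test, adjusted p = 0.0140), and this call ended without GM10835 replicate 3 (adjusted p = 0.0501).

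MED28 had ratios of -1.48, -1.29 and -1.04 in GM12813, -0.58, 0.01 and -0.34 in GM10835, and -1.50, -1.28 and -1.12 in GM07029. GM10835 lay above the other 2 lines without overlap, by 0.96 over GM12813 (adjusted p = 0.00306) and by 1.00 over GM07029 (adjusted p = 0.00618). Here the fractions differed in direction: nascent RNA was 9.56 ± 0.15 in GM12813, 9.99 ± 0.06 in GM10835 and 9.53 ± 0.01 in GM07029, whereas total RNA was 10.03 ± 0.32 in GM12813, 9.46 ± 0.25 in GM10835 and 10.07 ± 0.15 in GM07029. With each array centred on its median cluster, the range of nascent line means came down to 0.24, against 0.46 as deposited, and the nascent F call ended (adjusted p = 0.0548). The F call in total RNA (adjusted p = 0.0191) ended without GM10835 replicate 2 or 3 (highest adjusted p 0.101) and with the first arrays of the technical duplicates alone (adjusted p = 0.0742). POLR2C was at -0.61 ± 0.02 in GM12813, 0.13 ± 0.07 in GM10835 and -0.36 ± 0.18 in GM07029 (F test, adjusted p = 0.00341), with a range of 0.74 in nascent and 0.41 in total RNA.

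MED18 was at 0.03 ± 0.13 in GM12813, 0.62 ± 0.07 in GM10835 and -0.16 ± 0.42 in GM07029 (F test, adjusted p = 0.0211). Its nascent RNA spanned 1.07 between the lines. POLR2H, POLR2F, MED28 and POLR2C kept their call in all 21 alternative settings. The other 10 lost it in at least 2, mostly when a culture of GM10835 or GM12813 was left out: the adjusted p then reached 0.0501 for POLR2G, 0.0714 for MED21 and 0.0787 for MED18. It reached 0.104 for MED7, 0.110 for MED15, 0.116 for MED17, 0.119 for MED24, 0.122 for MED20, 0.131 for POLR2K and 0.144 for MED30.

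**Figure D3:**
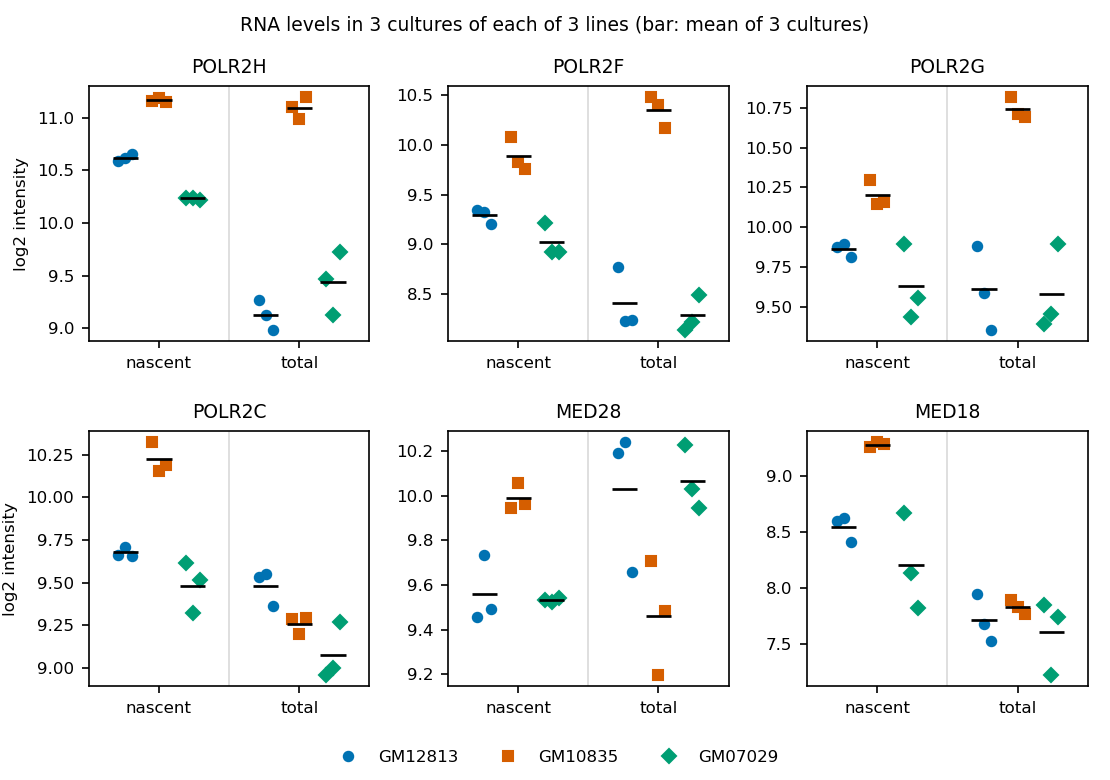
Log2 array intensity of 6 members in nascent RNA (left of each panel) and total RNA (right) of GM12813, GM10835 and GM07029; each point is a culture and each bar the mean of 3 cultures, and the vertical axis differs between panels and does not start at 0. GM10835 is highest in both fractions for POLR2H, POLR2F and POLR2G, with the wider gap in total RNA, while for POLR2C, MED28 and MED18 it stands apart in nascent RNA.

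In total RNA alone, 24 of the 37 members differed between the 3 lines, 64.9%, against 56.3% of all clusters. All 5 shared polymerase subunits and POLR2G were higher in GM10835 than in GM07029, by 2.07 for POLR2F, 1.65 for POLR2H, 1.51 for POLR2L, 1.16 for POLR2G, 0.94 for POLR2E and 0.71 for POLR2K. The largest adjusted p among these 6 was 0.00109 (POLR2K), and 29.0% of all clusters were higher in this comparison. The same 6 were lower in GM12813 than in GM10835, by between -1.97 (POLR2H) and -0.51 (POLR2E), where 25.4% of all clusters were. No culture of GM10835 overlapped with one of the other 2 lines for POLR2F, POLR2H, POLR2L, POLR2G, POLR2E or POLR2K, and all 6 kept their F call in the 20 alternatives. These 6 were named for their called differences. The share of all clusters that separate in this way is not given here, so the separation cannot be read as an excess.

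The other 4 Pol II subunits were not called in total RNA of GM10835 minus GM07029. POLR2B had total RNA of 10.34 ± 0.16 in GM12813, 10.71 ± 0.14 in GM10835 and 10.74 ± 0.16 in GM07029 (F test, adjusted p = 0.0259), and this ended without GM12813 replicate 3 (adjusted p = 0.0920). POLR2C was highest in GM12813 at 9.48 ± 0.10, against 9.26 ± 0.06 in GM10835 and 9.08 ± 0.17 in GM07029 (F test, adjusted p = 0.0287), a call that held in 2 of the 9 fits with 1 culture left out (highest adjusted p 0.104). Total RNA of POLR2A and POLR2D was not called by the F test (adjusted p = 0.273 and 0.740).

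Mediator subunits went both ways in total RNA. Against GM07029, GM10835 had 7 of 27 higher, among them MED11 (1.20, adjusted p = 0.000365), MED31 (0.94, adjusted p = 0.000460) and MED16 (0.56, adjusted p = 0.000585), and 9 lower; 18.9% of all clusters were lower. MED14 was the lowest, with total RNA of 10.37, 10.33 and 10.10 in GM12813, 9.50, 9.33 and 9.48 in GM10835, and 9.99, 10.14 and 10.25 in GM07029. The GM10835 cultures lay below all others. GM12813 exceeded GM10835 by 0.83 (adjusted p = 0.000193), and GM10835 was below GM07029, by -0.69 (adjusted p = 0.000572). MED13, CDK8, MED28 and MED17 were also lower in GM10835 than in each of the other 2 lines, although the MED28 cultures of GM12813 and GM10835 overlapped. Both pairwise calls of MED14 held in all alternatives, but the calls of the other 4 against GM12813 did not. That of MED13 ended with the first arrays of the technical duplicates (adjusted p = 0.0889). Those of CDK8, MED28 and MED17 ended with these arrays too and without single cultures of GM10835 or GM12813, with adjusted p up to 0.156 for CDK8 (without GM10835 replicate 2), 0.104 for MED28 (without GM10835 replicate 2) and 0.103 for MED17 (without GM12813 replicate 2). Against GM07029, MED13 and CDK8 kept their call in all alternatives, and MED28 and MED17 did not. The F call of MED17 in total RNA ended with the first arrays of the technical duplicates and with the replicate block (adjusted p = 0.0569). It also ended without GM10835 replicate 1 or 2 (0.0911 and 0.110) or GM12813 replicate 2 (0.0547).

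In nascent RNA, 28 of 37 members differed between the 3 lines, 75.7%, against 56.7% of all clusters. For 25 of the 28, GM10835 had the highest line mean and GM07029 the lowest. The exceptions were MED14, MED13 and CDK19, which were lowest in GM10835. Of the members, 4 (10.8%) were called higher in GM12813 than in GM07029, against 12.7% of all clusters. The median difference of this pair was 0.14 for the members and 0.07 for all clusters. The count rose to 14 without GM07029 replicate 1 (24.9% of all clusters), so few calls here do not show that the lines were close. In GM10835 minus GM07029, 25 members were higher and 3 lower, 67.6% and 8.11%, against 41.6% and 13.7% of all clusters, with a median difference of 0.51 for the members and 0.16 for all clusters. The widest were MED18 at 1.07 (adjusted p = 0.000238), POLR2L at 1.05 (adjusted p = 7.61e-05) and MED11 at 1.01 (adjusted p = 0.000135). With each array centred on its median cluster, the split became 20 higher and 8 lower, against 22.8% and 29.8% of all clusters, and the medians became 0.26 for the members and -0.09 for all clusters.

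In GM12813 minus GM10835, 3 members were higher in nascent RNA and 22 lower, against 11.0% and 32.4% of all clusters; centring the arrays gave 5 and 13, against 25.5% and 17.0%. In total RNA of the same pair, 5 were higher and 14 lower, against 12.6% and 25.4%, and centring gave 10 and 11, against 22.8% and 21.5%. The smaller counts also moved with single cultures. In nascent RNA 1 member was higher without GM10835 replicate 1 or GM12813 replicate 1 or 2 (7.64% to 8.16% of all clusters). In total RNA 2 or 3 were higher without any 1 culture of GM10835 or without GM12813 replicate 1 or 2 (8.73% to 10.3%). The counts of these pairwise comparisons thus depend on the scaling, and comparisons that involve GM10835 share its 3 cultures. In GM12813 minus GM07029, in nascent RNA 4 members were higher in GM12813 and 0 lower (12.7% and 5.65% of all clusters), but 14 were higher without GM07029 replicate 1 (24.9% of all clusters). In the ratio of this pair 2 were higher, POLR2H and MED7, and 0 lower (4.91% and 0.889%). Neither was called without GM12813 replicate 2 or 3, with the first arrays of the technical duplicates or with no filter (0.967% to 1.57% of all clusters higher). Just 1 of them was called without GM07029 replicate 2 or 3 or GM10835 replicate 1 or 3 (2.17% to 4.88%). In total RNA of this pair, POLR2E and POLR2C were higher and POLR2B and CDK19 lower in GM12813, against 10.8% and 13.7% of all clusters. With the replicate block 1 was higher and 0 lower (6.94% and 10.6% of all clusters). Without GM07029 replicate 1 or 3, GM10835 replicate 1 or 2, or GM12813 replicate 2 or 3, 0 were lower (7.5% to 11.9%). POLR2E lost its call in 1 of the alternatives, without GM07029 replicate 1 (adjusted p = 0.0510).

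**Figure D4:**
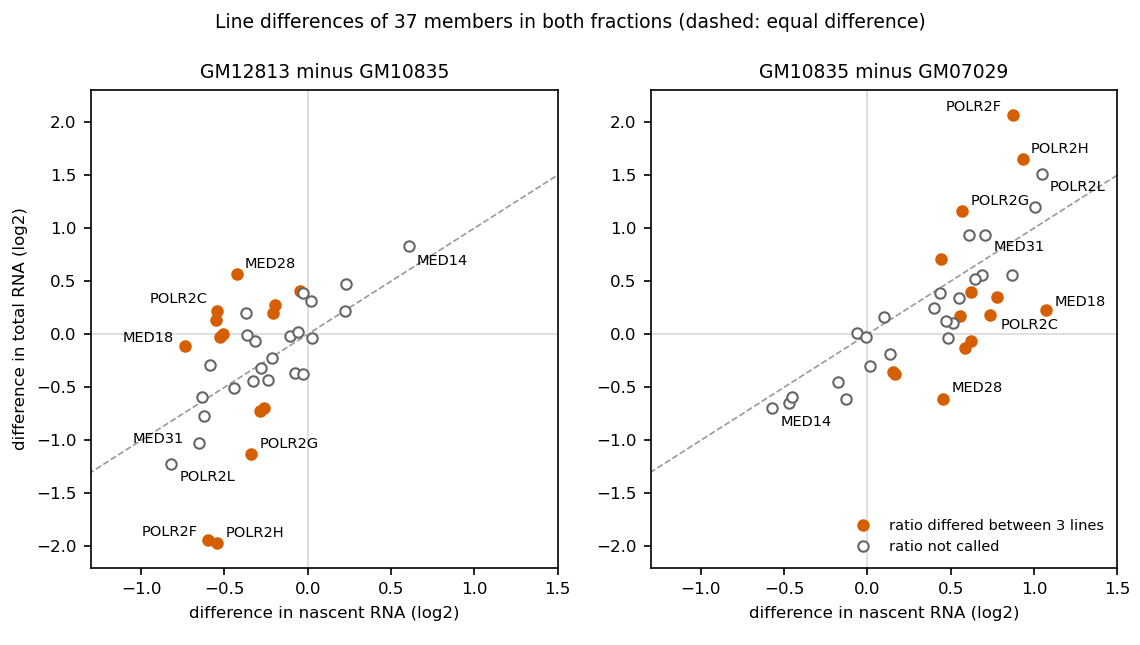
Difference between lines in nascent RNA (horizontal) against the difference in total RNA (vertical), both log2, for the 37 tested members; the left panel is GM12813 minus GM10835 and the right panel GM10835 minus GM07029, which share GM10835. Filled points had a ratio that differed between the 3 lines, and points off the dashed line moved unequally: POLR2F, POLR2H and POLR2G lie on its total-RNA side, MED28, POLR2C and MED18 on its nascent side.

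Across all 7 lines, GM10835 had the highest ratio of the 7 lines for 16 members, 43.2%, against 24.6% of all clusters: 15 of 27 Mediator subunits and POLR2C. It had the lowest for 6, all of them Pol II subunits (POLR2B, POLR2F, POLR2G, POLR2H, POLR2K and POLR2L), 16.2%, against 22.6% of all clusters. The median ratio in GM10835 was 0.39 over the Mediator members and -0.76 over the Pol II members. The medians of the other 6 lines ran from -0.28 to 0.12 for Mediator and from -0.30 to 0.03 for Pol II. Within Pol II the subunits split in GM10835. The median there was -1.12 over the 5 shared subunits and 0.13 over the 5 found only in Pol II. The lowest ratio lay in GM12812 for 13 members, all of Mediator (23.3% of all clusters), and the highest lay there for 8 (19.4% of all clusters). GM12815 had the lowest ratio for 12 (18.3% of all clusters). GM12812 and GM12815 are single cultures.

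The opposite placing of Mediator and of the shared polymerase subunits in GM10835 was not tested as such. The median ratio of the 25 general transcription factor genes was also highest in GM10835, at 0.30, against -0.13 to 0.14 in the other 6 lines. That of the elongation and pausing factors was highest in GM12812, and that of the Pol I and III subunits in GM12814. For the 6 B cell markers it was highest in GM10835, at -0.68, against -1.58 to -1.0 in the other 6 lines. The part of these other genes in the results was not tested. Without GM10835, the ratio over 7 lines called 13 members higher and 14 lower (31.6% and 31.6% of all clusters), so leaving it out moved these counts by at most 1.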

How the data were processed

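Analysis began from the log2 intensity of each transcript cluster on each exon array, in the table the authors deposited. Affymetrix Power Tools and hg18 are named in the submitters' processing notes; how the arrays were normalized, within or between the fractions, is not given in the sources used here. No genome of that build was used, and no positions are reported. A transcript cluster groups the probes placed on one gene. Gene symbols came from the platform annotation, checked against RefSeq names.

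Technical duplicates were averaged. For each culture, total was subtracted from nascent on the log2 scale, and this ratio was centred on the median of the clusters tested. A line was the mean of its cultures. Clusters were tested if their mean over all arrays of both fractions passed 6.40, the 95th percentile of that mean over 216 olfactory receptor clusters. limma 3.58.1 in R 4.3.3 (lmFit, then eBayes with a trend) tested the line ratios against 0, and, by a moderated F test and 3 contrasts, the ratio, nascent RNA and total RNA of 9 cultures. P-values were two-sided and adjusted by Benjamini-Hochberg over 14167 clusters, with a threshold of 0.05. In simulated data of 14167 genes, 200 each were given a difference of 0.5, 1 and 2 log2. The test over 7 lines called 68.5%, 97.5% and 100% of these, and the test between 3 lines called 24.0%, 84.5% and 98.0%. In the data, these tests called 63.5% and 25.4% of all clusters. Far fewer genes carried a difference in the simulation, so its rates may not carry over.

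The members and gene lists were chosen with earlier results of these data known. Every member may be named; from each other list the 2 highest and 2 lowest called genes were named. Alternatives changed the filter, scaling, duplicates, variance model, pairing and samples. The number of arrays and cultures limits the precision.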

Additional observations from a re-analysis of the deposited data

Results flagged for a closer look

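Over 7 lines, 111 sets of values (the ratio, nascent RNA and total RNA of 37 members) were examined for a line that stood far from the rest by Dixon's criterion, and 12 did. The criterion's level sets about 1 in 20 by chance for independent sets. These sets are not independent, because the ratio is nascent minus total RNA of the same member. The share of all clusters with such a line is not given here, so the 12 cannot be read as an excess in these genes. In total RNA, GM10835 was far above the other 6 lines for POLR2H (11.09), POLR2G (10.74), POLR2K (10.57), POLR2F (10.35), MED31 (8.77) and POLR2L (8.72), with gaps to the next line of 0.67 (MED31) to 1.79 (POLR2F). GM07029 was the highest line for MED12 total RNA (8.42). GM12815, a single culture, was far below the rest for nascent RNA of MED15 (9.19), MED12 (8.73) and MED29 (7.65) and for the MED29 ratio (-0.45). GM10835 was far above the rest for the MED26 ratio (0.54).

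The ratio of 14 members differed between GM12813, GM10835 and GM07029 by the F test. The range of the 3 line means was 1.45 for POLR2H, 1.37 for POLR2F, 1.00 for MED28, 0.82 for POLR2G, 0.78 for MED18, 0.74 for POLR2C and 0.66 for MED21. It was 0.62 for MED7, 0.62 for MED30, 0.49 for MED20, 0.47 for MED17, 0.47 for MED24, 0.47 for POLR2K and 0.44 for MED15.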

How the results depend on the processing

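Of the 26 members called over 7 lines, 19 kept the call in all 19 alternatives other than leaving out the centring; CDK8, MED23, MED24, MED26, POLR2C, POLR2H and POLR2K lost it in at least 1. Leaving out 1 line at a time gave 25 to 27 called members, 12 to 13 higher and 13 to 14 lower. Of all clusters, 29.6% to 31.7% were higher and 29.1% to 31.6% lower in these fits. The exact sign-flip permutation called 11 higher and 11 lower (24.9% and 25.2% of all clusters). Without centring, 27 were higher and 3 lower (82.2% and 5.38% of all clusters), and the sign turned for MED16 (0.60), MED13 (0.67), MED18 (0.50), MED20 (0.68), MED8 (0.59), POLR2F (0.73), CDK8 (0.32), MED23 (0.50), POLR2K (0.42), POLR2C (0.18), POLR2L (0.16), POLR2G (0.091) and CDK19 (0.058), because the median cluster itself lay at 0.77. The 14 members whose ratio differed between 3 lines became 4 with no filter on low values (9.23% of all clusters), 9 with the first arrays of the technical duplicates (15.4%), and 5 to 20 with 1 culture left out (12.8% to 35.8%). Culture numbers of different lines did not pair them: deviations of same-numbered cultures had correlations of both signs. With the replicate block, 9 members differed in the ratio (17.4% of all clusters), 19 in total RNA (49.5%) and 28 in nascent RNA (52.5%). Leaving out 1 culture gave 18 to 25 in total RNA (46.5% to 56.7%) and 25 to 31 in nascent RNA (50.1% to 64.7%). Treating the fractions as unpaired groups (no replicate block) called 10 higher and 11 lower (25.4% and 23.7%). The nascent difference of MED12 in GM10835 minus GM07029 turned to -0.21 with quantile normalization and -0.24 with centred arrays. Except where a cause is given, the cause was not tested. With 3 cultures a line, differences of 0.5 were often missed in the simulated data.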
